A study of Arabidopsis thaliana with 27 samples.

Results

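Gene expression in heart-stage seeds of Arabidopsis thaliana that developed at 27 °C was compared with that in heart-stage seeds that developed at 23 °C. The comparison used the 3 libraries labelled 27 °C and heart stage and the 3 labelled 23 °C and heart stage, which are 6 of the 27 libraries of the series. The other libraries hold heart seeds at 25 °C and the later bent and mature stages at the same temperatures. All plants were wild type, ecotype Col0 (Columbia), and whole seeds were sampled, so each library mixes RNA of the embryo, the endosperm and the maternal seed coat. The control was 23 °C, mild stress 25 °C and severe stress 27 °C, applied from about the onset of flowering on, with the same long light period for all plants. For the time before flowering the labels and the methods text give different temperatures. The labels give the embryo stage but not the age of the seeds at each temperature. They also do not say that the replicates came from separate plants. The p-values below therefore measure only the spread between samples of a group, estimated per gene over all 27 libraries. Gene labels and coordinates refer to assembly TAIR10.1.

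At the heart stage the embryo forms its cotyledons while the endosperm still fills most of the seed and the seed coat lays down proanthocyanidins, mucilage and, later, suberin. Storage proteins and oil bodies are made afterwards, under the transcription factors FUS3, LEC2 and ABI3 and the hormone abscisic acid, and they mark the filling and maturing seed. Plant cells answer warmth through heat shock factors, which bind heat shock elements in promoters and raise the transcription of small heat shock proteins and other chaperones that keep unfolding proteins soluble. In such bulk samples fewer cells of a type and less RNA per cell cannot be told apart.

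Total counts in the 6 heart libraries ranged from 17227596 to 18767712, so depth was similar. Values are given as normalised counts, in which DESeq2 scales each library by its median ratio to a common reference. Pearson's r across genes between replicates was 0.990 to 0.992 at 27 °C and 0.962 to 0.984 at 23 °C. Replicate 1 at 23 °C stood apart from replicates 2 and 3. It held 48 genes at least 8-fold above both of them (minimum 100 normalised counts), whereas 0 genes met this rule in any of the other 5 libraries. All 48 were also higher in bent and in mature seeds at 23 °C than in replicates 2 and 3, and 19 belonged to the lists of storage proteins, oil body proteins and late embryogenesis abundant proteins described below. The 13 storage protein genes took 0.607% of all counts in this library and 0.0101 and 0.0102% in replicates 2 and 3, against 0.065 to 0.105% at 27 °C, 0.00327 to 0.00586% in heart seeds at 25 °C and 13.5 to 15.1% in mature seeds at 23 °C. Calls at 27 °C and their fold changes below are therefore given, or were checked, with all 3 control libraries and without this replicate. Stage differences of single genes and within lists, opposite calls between stages, and counts by fold size or overlap use all libraries.

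Of 21445 genes tested, 2695 (12.6%) were higher at 27 °C and 2467 (11.5%) lower (Wald test of DESeq2, Benjamini-Hochberg adjusted p under 0.05, n = 3 per group, no fold threshold). Without replicate 1 at 23 °C the counts were 2873 (13.4%) and 2413 (11.3%), and 4406 genes were called in the same direction in both fits, 2329 higher and 2077 lower. Only 2 genes were called in opposite directions, the storage protein genes CRU2 and SESA4. A change of at least 2-fold was reached by 994 higher and 606 lower genes, and of at least 4-fold by 349 and 212. The libraries of the 2 temperatures did not overlap for 4688 genes higher (21.9%) and 4907 lower (22.9%) at 27 °C. Without replicate 2 at 23 °C 1922 genes were higher, and without replicate 2 at 27 °C 1627 were lower. When libraries were scaled to their totals, the median log2 fold change over genes went from -0.01 to 0.07, 3062 genes were higher and 1346 lower, and higher genes made up 69.5% of the calls in place of 52.2%. Directions are relative to the median gene.

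**Figure D1:**
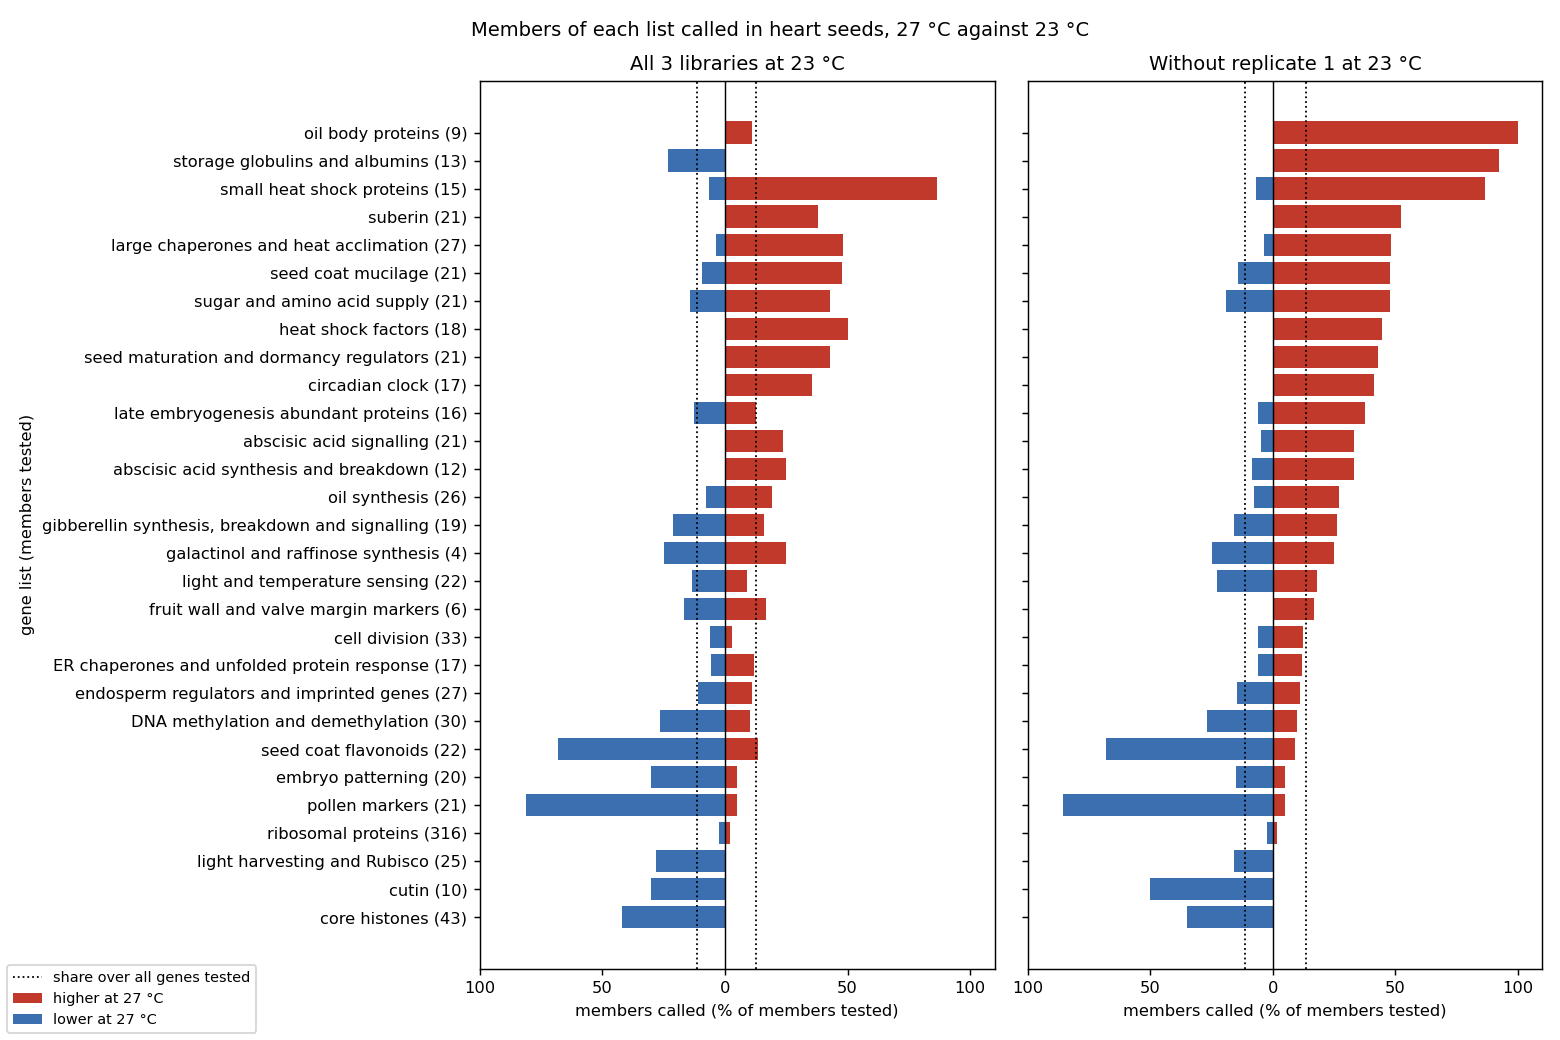
Share of the tested members of 29 gene lists called higher (red, to the right) or lower (blue, to the left) in heart seeds at 27 °C against 23 °C (x axis in % of members tested, number tested in brackets), with all libraries (left panel) and without replicate 1 at 23 °C (right panel). Dotted lines give the share over all 21445 genes tested, 12.6% higher and 11.5% lower in the left panel. The oil body and storage protein bars turn from 1 and 0 members higher to 9 and 12 between the panels, whereas the bars of small heat shock proteins, flavonoids and pollen markers keep their side.

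The small heat shock proteins had the highest median log2 fold change of the 29 lists in the fit with all libraries. They bind unfolding proteins and hold them until other chaperones refold them. Of the 15 members tested, 13 were higher and 1 was lower, with a median log2 fold change of 3.57, and without replicate 1 at 23 °C the counts were the same and the median was 3.39. Over all genes tested the median was -0.01, and 12.6% were higher and 11.5% lower. HSP17.6A (AT5G12030) had 5.49, 11.6 and 7.08 normalised counts in replicates 1 to 3 at 23 °C and 180.5, 293 and 225 at 27 °C, with 7.64, 5.34 and 33.8 at 25 °C. The 27 °C libraries were all above the 23 °C libraries, with a log2 fold change of 4.85 ± 0.57 (SE) and an adjusted p of 2.41e-15. ATHSP22.0 (AT4G10250), whose product is kept in the endoplasmic reticulum, had 8.23, 7.16 and 4.43 at 23 °C and 144, 242 and 230.4 at 27 °C, again without overlap (log2 fold change 4.96 ± 0.97, adjusted p 6.77e-06). AT1G59860, a cytosolic member, had 47.6, 57.3 and 43.4 at 23 °C and 383, 465 and 474 at 27 °C, and its log2 fold change was 3.16 ± 0.35. The mitochondrial members AT5G51440 and HSP23.6-MITO (AT4G25200) changed by 3.65 and 4.59 on the log2 scale. The genes called higher thus included cytosolic, mitochondrial and endoplasmic reticulum members.

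The member that went the other way was AT4G21870. It had 54.9, 82.3 and 84.1 at 23 °C and 46.7, 34.7 and 43.6 at 27 °C, a log2 fold change of -0.83 ± 0.27 with an adjusted p of 0.0111. This call was lost when replicate 2 (-0.74, adjusted p 0.0783) or replicate 3 (-0.72, adjusted p 0.0821) at 23 °C or replicate 2 at 27 °C (-0.71, adjusted p 0.0885) was left out, and under scaling to library totals (-0.75, adjusted p 0.0713). AT1G52560 was not called, with 6.40, 9.85 and 7.97 at 23 °C and 9.16, 16.9 and 14.2 at 27 °C. In the heart seeds at 25 °C one library stood out: the summed small heat shock protein level was 264 and 229 in replicates 1 and 2 and 868 in replicate 3, against 307 to 390 at 23 °C and 2335 to 3380 at 27 °C. For ATHSP22.0 the 25 °C libraries had 11.9, 2.67 and 172. Several members are similar in sequence and Salmon divides shared reads between them by an estimate, so values of single members are less certain than their sum.

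The 27 °C effect on small heat shock proteins was larger in heart than in bent seeds for 8 of the 15 members by the interaction test (difference of the 2 effects, adjusted p under 0.05), and smaller for 0. Over all genes tested 1886 (8.79%) had a positive and 1261 (5.88%) a negative difference. For HSP17.6A the effect was 4.85 in heart and 1.55 in bent seeds, a difference of 3.30 ± 0.76 on the log2 scale (adjusted p 0.000398). In mature seeds its effect was 3.30, and the difference from heart seeds was not called (1.55 ± 0.80, adjusted p 0.199). AT1G53540 changed by 4.19 in heart seeds, from 1.83, 7.16 and 1.77 at 23 °C to 48.6, 84.6 and 62.8 at 27 °C, and by -1.10 in bent seeds, where its adjusted p was 0.258. In bent seeds at 23 °C the small heat shock proteins took 0.0029, 0.011 and 0.00241% of counts in replicates 1 to 3, so replicate 2 stood apart. The share was 0.00184 to 0.00234% in heart seeds at 23 °C and 0.0121 to 0.0161% in bent seeds at 27 °C. In mature seeds it was 0.00183 to 0.0021% at 23 °C and 0.00854 to 0.0116% at 27 °C. How many stage differences of this list rest on replicate 2 of the bent control was not counted. Over all genes 3420 stage differences were called without that library and 3147 with it.

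**Figure D2:**
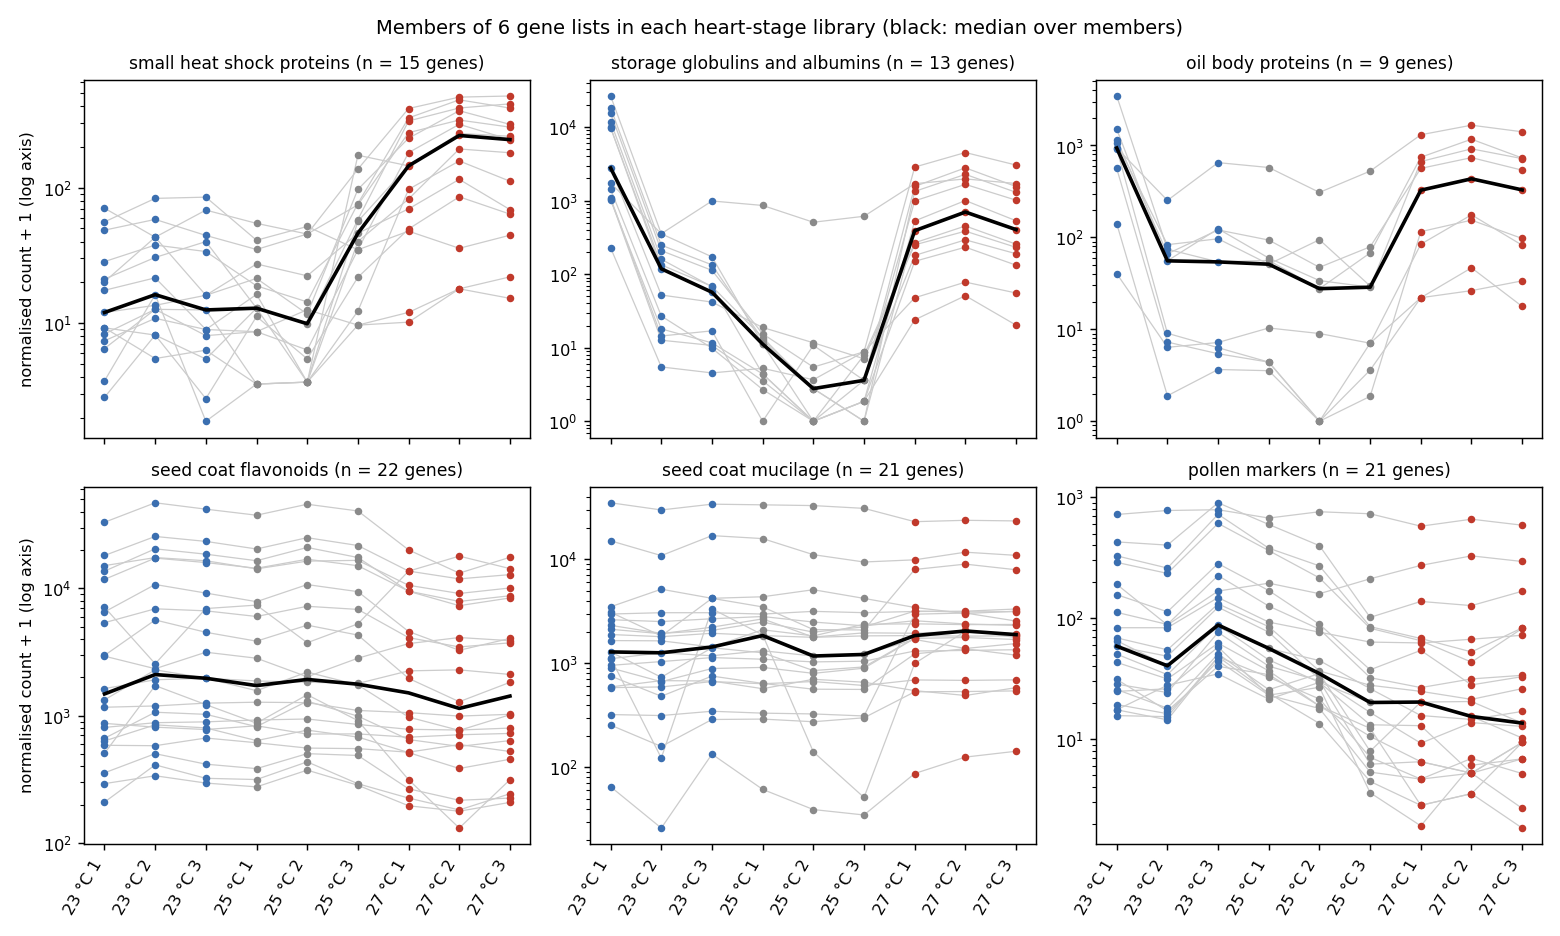
Normalised counts plus 1 (log axis) of the members of 6 gene lists in each heart library, with replicate numbers on the x axis (blue 23 °C, grey 25 °C, red 27 °C, grey lines join 1 gene, black line is the median over members). The 15 small heat shock proteins are high in the 3 libraries at 27 °C and intermediate in replicate 3 at 25 °C, the medians of the storage and oil body genes are highest in replicate 1 at 23 °C and next highest at 27 °C, and the pollen markers are highest in replicate 3 at 23 °C.

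Of 18 heat shock factors tested, 9 (50%) were higher and 0 were lower, beside 12.6 and 11.5% over all genes tested. The count of higher ones was 8 without replicate 1 at 23 °C, and 5 when either temperature's replicate 3 was left out. HSFA2 (AT2G26150), the factor that sustains the response to repeated or lasting heat, had 22.0, 10.7 and 24.8 normalised counts at 23 °C and 252, 286 and 268 at 27 °C (log2 fold change 3.81 ± 0.42, adjusted p 3.2e-17). The libraries at 27 °C lay far above all at 23 °C. HSFA7A (AT3G51910) rose from 1.78 ± 1.52 to 15.0 ± 3.45 (mean ± SD, n = 3), and HSFB2A (AT5G62020) and HSFB1 (AT4G36990), which belong to the repressing B class, changed by 1.23 and 0.64 on the log2 scale. DREB2A (AT5G05410), an activator of heat shock factor genes that was counted with the large chaperones and heat acclimation genes, had 133, 118 and 104 at 23 °C and 247, 234 and 358 at 27 °C, with a log2 fold change of 1.24 ± 0.22.

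Promoter sequences are shown for the 5 genes of these lists that were called higher and hold a heat shock element within the 250 bases before the annotated gene start, since this element is the known site of heat shock factors. The element was searched on both strands as 3 alternating units of GAA and TTC, GAANNTTCNNGAA or TTCNNGAANNTTC. Each stretch is written 5′ to 3′ on the strand of the gene (RefSeq, TAIR10.1), and capitals mark the element.
HSFA2 (chr2:11135506-11135578, plus strand): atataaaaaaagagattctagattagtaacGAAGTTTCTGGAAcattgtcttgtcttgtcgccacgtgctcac
HSFA7A (chr3:19264919-19265041, plus strand): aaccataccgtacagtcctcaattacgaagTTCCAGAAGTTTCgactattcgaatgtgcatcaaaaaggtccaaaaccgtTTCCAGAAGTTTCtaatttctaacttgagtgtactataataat
DREB2A (chr5:1602011-1602083, plus strand): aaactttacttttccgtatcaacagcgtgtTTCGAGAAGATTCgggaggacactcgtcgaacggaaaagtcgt
HSP17.4 (chr3:16984868-16984996, minus strand): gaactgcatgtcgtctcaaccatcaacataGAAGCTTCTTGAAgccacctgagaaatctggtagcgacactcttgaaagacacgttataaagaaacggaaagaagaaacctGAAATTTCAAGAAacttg
AT1G53540 (chr1:19980216-19980288, plus strand): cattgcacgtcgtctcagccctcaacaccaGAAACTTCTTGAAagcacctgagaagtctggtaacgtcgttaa
This spelling of the element was found in 0.412% of the promoters of all genes tested (88 of 21376), in 0.561% of those of higher genes and in 0.203% of those of lower genes. It was found in 2 of 16 small heat shock protein genes, 3 of 21 heat shock factor genes and 1 of 27 genes of the list of large chaperones. Looser spellings were not searched. The letters TGGGCC (site II) stood in 10 of the 16 small heat shock protein promoters. They were found in 16.0% of all promoters, 10.5% of those of higher genes and 12.4% of those of lower genes. Several other motifs were searched, and not all are reported here. These matches are a description and not a test of binding.

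The list of large chaperones and heat acclimation genes held genes that rose severalfold beside genes that did not pass the test. Of 27 tested, 13 (48.1%) were higher and 1 (3.7%) was lower, with the same counts without replicate 1 at 23 °C. The shares over all genes tested were 12.6 and 11.5% with all libraries. The Hsp70 gene HSP70 (AT3G12580) had 972, 672 and 1261 normalised counts at 23 °C and 5745, 7023 and 6892 at 27 °C (log2 fold change 2.76 ± 0.43, adjusted p 9.34e-09), and it had 687, 457 and 1628 at 25 °C. HSP101 (AT1G74310), which pulls aggregated proteins apart, had 604, 400.1 and 496 at 23 °C against 1759, 2005 and 2049.8 at 27 °C. HSP90.1 (AT5G52640), the heat-inducible cytosolic Hsp90, had 874, 933 and 1113 at 23 °C against 4045, 4932 and 4832 at 27 °C. In all of these the groups did not overlap. The peptidyl-prolyl isomerase gene ROF2 (AT5G48570), the co-chaperone gene Hop3 (AT4G12400), the coactivator gene MBF1C (AT3G24500) and BAG6 (AT2G46240) changed by 2.71, 2.23, 1.74 and 1.06 on the log2 scale. By contrast Hop1 (AT1G12270), a relative of Hop3, was lower, with 1320.1, 1302 and 1365 at 23 °C and 1088, 1059 and 1084 at 27 °C (log2 fold change -0.30 ± 0.07). Under scaling to library totals 0 members were lower.

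Of 17 chaperones and other genes of the unfolded protein response in the endoplasmic reticulum, 2 (11.8%) were higher and 1 (5.88%) was lower in both fits, beside 12.6 and 11.5% over all genes tested. BIP3 (AT1G09080), the inducible lumenal Hsp70, had 11.9, 0 and 11.5 at 23 °C and 29.3, 40.6 and 32.7 at 27 °C, and ATERDJ3A (AT3G08970), a J-protein that partners Hsp70, had 326, 243 and 285 at 23 °C against 512, 582 and 599 at 27 °C. The calreticulin gene CRT1b (AT1G09210) was lower, with 6879, 7921 and 6541 at 23 °C against 5286, 5022 and 5224 at 27 °C (log2 fold change -0.46 ± 0.11). For the abundant members BIP1 and BIP2 the log2 fold changes were -0.03 and -0.04, neither called.

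The direction for storage proteins depended on 1 control library. With all libraries 0 of 13 globulin and albumin genes were higher and 3 (23.1%) lower, beside 12.6 and 11.5% over all genes tested. The median log2 fold change of the list was -1.51. The count of lower genes was 5 when replicate 2 and 6 when replicate 3 at 23 °C was left out, and 1 and 0 when this was done with replicates 1 and 3 at 27 °C. Without replicate 1 at 23 °C 12 were higher and 0 lower, with a median of 3.10. CRU3 (AT4G28520), a 12S globulin (chromosome 4, 14087556 to 14089796), had 26428, 353 and 171 normalised counts in replicates 1 to 3 at 23 °C, 10.2, 0 and 2.60 at 25 °C and 1557, 2786 and 1551 at 27 °C. The 27 °C libraries lay below replicate 1 and above replicates 2 and 3 at 23 °C, and above all libraries at 25 °C. Its log2 fold change was -2.19 ± 0.88 (adjusted p 0.0516) with all libraries and 2.91 ± 0.69 (adjusted p 0.000275) without replicate 1. CRU2 (AT1G03880), another 12S globulin, had 11769, 158 and 66.4 at 23 °C and 528, 1000.5 and 531 at 27 °C. It changed by -2.54 (adjusted p 0.0117) with and 2.61 (adjusted p 0.000149) without this replicate. The 2S albumin SESA4 (AT4G27170) changed by -2.75 (adjusted p 0.0151) with and 2.31 (adjusted p 0.0114) without it. Both genes were thus called in each fit, in opposite directions. The calls of CRU2 and SESA4 with all libraries were also lost when replicate 1 (adjusted p 0.0535 and 0.061) or replicate 3 (0.0556 and 0.0618) at 27 °C was left out.

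For CRA1 (AT5G44120) the libraries had 15473, 208 and 112 at 23 °C and 2854, 4503 and 3042 at 27 °C. DESeq2 gave it no adjusted p with all libraries, and without replicate 1 its log2 fold change was 4.44 ± 0.41 (adjusted p 4.38e-25). AT4G36700, a vicilin-like globulin gene, had 1730.0, 354 and 987 at 23 °C, 858, 507 and 611 at 25 °C and 1697, 1969.8 and 1706 at 27 °C. Its level at 25 °C differed from that of the other members, whose means there were at most 11.5. Storage protein genes are members of families of similar sequence, so reads shared between them may be divided unevenly.

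The oil body proteins, which coat the lipid droplets of the seed, showed the same split between fits. With all libraries 1 of 9 (11.1%) was higher, beside 12.6% over all genes tested. Without replicate 1 at 23 °C 9 of 9 were higher, beside 13.4%. The median log2 fold change of the list went from -0.20 to 3.11. OLEO1 (AT4G25140) had 3453, 73.4 and 53.1 at 23 °C and 744, 1169 and 729.6 at 27 °C, with a log2 fold change of -0.44 ± 0.72 (adjusted p 0.724) with all libraries and 3.80 ± 0.37 (adjusted p 1.92e-22) without replicate 1. CLO1 (AT4G26740), a caleosin, had 561, 6.27 and 4.43 at 23 °C against 83.4, 175 and 81.2 at 27 °C, and the values were -0.75 and 4.41. OLEO3 (AT5G51210) was the member called in both fits. It had 938, 252 and 649.9 at 23 °C and 1307, 1661 and 1408 at 27 °C (log2 fold change 1.25 ± 0.31 with and 1.70 ± 0.31 without replicate 1), so that for this gene the 27 °C libraries were above all 3 control libraries. Late embryogenesis abundant proteins, which protect drying cells, were low at this stage in every library, with summed levels of 304 to 674 at 23 °C and 496 to 555 at 27 °C. Of 16 tested 2 (12.5%) were higher and 2 (12.5%) lower, beside 12.6 and 11.5% over all genes tested. Without replicate 1 at 23 °C 6 were higher and 1 lower. Without replicate 2 or 3 at 27 °C 1 was lower.

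The promoters of storage and oil body genes are shown because these genes carry the RY repeat CATGCATG, the known site of B3-domain factors such as FUS3. Again capitals mark the motif and each stretch is written 5′ to 3′ on the gene's strand (RefSeq, TAIR10.1).
SESA3 (chr4:13611679-13611750, plus strand): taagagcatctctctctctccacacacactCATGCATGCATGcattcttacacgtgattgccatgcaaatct
SESA4 (chr4:13613453-13613520, plus strand): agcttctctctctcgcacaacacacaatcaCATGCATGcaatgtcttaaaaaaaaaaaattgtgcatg
SESA5 (chr5:22239361-22239428, minus strand): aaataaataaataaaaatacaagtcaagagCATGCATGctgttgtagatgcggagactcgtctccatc
PAP85 (chr3:8013942-8014002, minus strand): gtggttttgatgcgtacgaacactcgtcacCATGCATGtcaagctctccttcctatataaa
OLEO4 (chr3:10243064-10243131, plus strand): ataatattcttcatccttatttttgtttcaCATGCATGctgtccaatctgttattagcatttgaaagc
The RY repeat stood in 4 of 13 storage protein promoters and 1 of 9 oil body protein promoters, against 0.749% of the promoters of all genes tested, 1.12% of those of higher and 1.05% of those of lower genes. The G-box CACGTG stood in 8 of 13 storage protein promoters and in 7.34% of all.

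**Figure D3:**
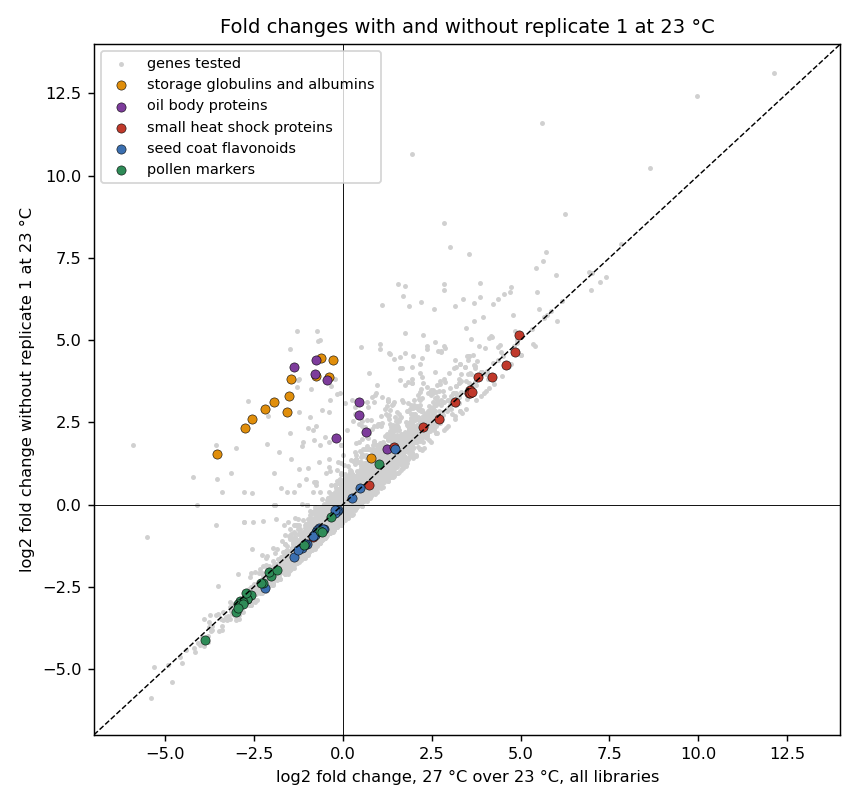
Log2 fold change of 27 °C over 23 °C in heart seeds with all libraries (x axis) and without replicate 1 at 23 °C (y axis). Each point is 1 gene, grey for genes tested and coloured for members of 5 lists, and the dashed line marks equal values. Storage proteins (median -1.51 and 3.10) and oil body proteins (-0.20 and 3.11) lie far above the line, while small heat shock proteins, flavonoid genes and pollen markers lie near it.

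Of 21 regulators of seed maturation and dormancy, 9 (42.9%) were higher and 0 lower in both fits. The shares over all genes tested were 12.6 and 11.5% with all libraries. With replicate 2 at 23 °C left out 2 members were lower, and with replicate 2 at 27 °C left out 1 was. FUS3 (AT3G26790), a B3-domain activator of storage protein genes, had 419, 176 and 343 normalised counts at 23 °C, 317, 204 and 302 at 25 °C and 840.2, 1025 and 814 at 27 °C. The 27 °C libraries were above all others, with a log2 fold change of 1.52 ± 0.22 (adjusted p 5.7e-10). The bZIP factor gene DPBF2 (AT3G44460), also known as bZIP67, had 178, 34.0 and 102 at 23 °C against 383, 478 and 348 at 27 °C (log2 fold change 1.95 ± 0.31 with and 2.57 ± 0.28 without replicate 1). The bZIP factor gene EEL (AT2G41070) had 342, 123 and 260.3 at 23 °C against 484, 578 and 529 at 27 °C. MFT (AT1G18100), which modulates germination through abscisic acid signalling, had 162, 8.06 and 27.4 at 23 °C and 409.6, 600.5 and 442 at 27 °C, with 16.1, 8.89 and 10.4 at 25 °C. Its log2 fold change was 2.88 ± 0.53 with all libraries and 4.77 ± 0.32 without replicate 1. VAL1 (AT2G30470), a repressor of the maturation programme, also rose (994, 719 and 878 at 23 °C against 1096, 1181 and 1161 at 27 °C).

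The difference between heart and bent seeds was positive for 9 of the 21 regulators and negative for 0. The shares over all genes tested were 8.79 and 5.88%. For FUS3 the log2 fold change was 1.52 in heart and 0.16 in bent seeds (difference 1.36 ± 0.31, adjusted p 0.000322), and EEL by 1.13 and -0.67. ABI3, the central regulator of maturation, was not called with all libraries (374, 119 and 235 at 23 °C and 189, 204 and 235 at 27 °C) and was lower when replicate 2 at 23 °C was left out (log2 fold change -0.54, adjusted p 0.00784). LEC1, which acts earlier, was not called (1319, 1099 and 1390.2 at 23 °C against 1232, 1364 and 1172 at 27 °C). DOG1 (AT5G45830), which sets seed dormancy, had 58.5, 0 and 7.08 at 23 °C and 23.8, 30.4 and 29.3 at 27 °C. It was not called with all libraries (adjusted p 0.804) and was higher without replicate 1 (log2 fold change 2.97 ± 0.66, adjusted p 0.000103).

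In abscisic acid metabolism 3 of 12 genes (25%) were higher and 0 lower, beside 12.6 and 11.5% over all genes tested. The counts were 4 and 1 without replicate 1 at 23 °C, and 1 was lower without replicate 3 at 23 °C. NCED9 (AT1G78390), which catalyses the committed step of synthesis in seeds, had 35.7, 9.85 and 86.8 normalised counts at 23 °C and 475, 651 and 522 at 27 °C (log2 fold change 3.64 ± 0.56, adjusted p 5.12e-09). CYP707A4 (AT3G19270), which inactivates the hormone, rose too, with 11, 2.69 and 2.66 at 23 °C against 39.4, 41.4 and 46.9 at 27 °C. ABA3 (AT1G16540), which activates the last enzyme of synthesis, rose from 599.9 ± 69.2 to 831 ± 16.8. For NCED9 the 27 °C effect was 3.64 in heart and -0.46 in bent seeds, a difference of 4.09 ± 0.79 (adjusted p 1.02e-05).

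Of 21 genes of abscisic acid signalling 5 (23.8%) were higher and 0 lower, beside 12.6 and 11.5% over all genes tested. The counts were 7 and 1 without replicate 1 at 23 °C. The count of higher genes was 3 without replicate 3 at 23 °C, where 1 was lower, 3 without any 1 of the 27 °C libraries, and 9 under scaling to library totals. The protein phosphatase 2C gene HAI1 (AT5G59220) had 2293, 2031 and 2063 at 23 °C against 3183, 3272 and 3126 at 27 °C (log2 fold change 0.59 ± 0.14), and the seed-specific phosphatase gene AHG1 (AT5G51760) had 2.75, 0 and 0 at 23 °C against 10.1, 13.5 and 10.9 at 27 °C, too few counts to give its fold closely. Among 19 gibberellin genes 3 (15.8%) were higher and 4 (21.1%) lower, beside 12.6 and 11.5% over all genes tested. The counts were 5 and 3 without replicate 1, and 2 were lower without replicate 2 at 23 °C. GA3OX4 (AT1G80330), which makes active gibberellin in the seed coat, had 17.4, 59.1 and 43.4 at 23 °C against 199, 169 and 152 at 27 °C (log2 fold change 2.11 ± 0.23), GA2OX2 (AT1G30040), which breaks it down, had 112, 158 and 137 at 23 °C against 295, 228 and 329 at 27 °C, and the DELLA repressor gene GAI (AT1G14920) was lower with 305, 448 and 417 at 23 °C against 257, 246 and 275 at 27 °C. A synthesis gene and a breakdown gene thus both rose.

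Most flavonoid genes, which include those of seed coat proanthocyanidins, were lower in these whole-seed libraries. Of 22 flavonoid genes 15 (68.2%) were lower and 3 (13.6%) higher at 27 °C, beside 11.5 and 12.6% over all genes tested. The median log2 fold change of the list was -0.73. Leaving out replicate 1 at 23 °C gave 15 lower and 2 higher with a median of -0.81. The higher ones were TT10 and the regulator genes GL2 and TT8 (log2 fold changes 1.47, 0.47 and 0.27), of which TT8 was not called with edgeR (adjusted p 0.0502) or when replicate 1 (0.20) or 2 (0.0546) at 23 °C or replicate 1 (0.104) or 2 (0.143) at 27 °C was left out. GL2 was not called when replicate 2 at 23 °C was left out (adjusted p 0.0662), and 1 member was then higher. TT4 (AT5G13930), chalcone synthase, the first enzyme of the pathway (chromosome 5, 4488476 to 4490264), had 33003, 46921 and 41814 normalised counts at 23 °C, 37484, 45707 and 40469 at 25 °C and 20022, 13154 and 17518 at 27 °C. All 27 °C libraries were below all others, with a log2 fold change of -1.26 ± 0.19 (adjusted p 1.5e-09). The dihydroflavonol reductase gene TT3 (AT5G42800) had 13636, 20405 and 18529.6 at 23 °C against 9477, 7306 and 8398 at 27 °C, and BAN (AT1G61720), anthocyanidin reductase, which commits the pathway to proanthocyanidins, had 18099, 25538 and 23345 at 23 °C against 13651, 11859 and 12807 at 27 °C. The largest fall was that of TT12 (AT3G59030), the vacuolar transporter of the precursors, with 506, 1721 and 1220.2 at 23 °C against 313, 130.2 and 313 at 27 °C (log2 fold change -2.19 ± 0.44). Under scaling to library totals 12 members were lower.

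TT10 (AT5G48100), the laccase that oxidises proanthocyanidins and browns the ripening coat, went the other way. It had 7105, 2555 and 6935 normalised counts at 23 °C, 7380.2, 3738 and 5257 at 25 °C and 13637, 17886 and 14276 at 27 °C, with a log2 fold change of 1.47 ± 0.28 (adjusted p 4.21e-06). In bent seeds at 23 °C its mean was 33299, and the difference of its 27 °C effect between heart and bent seeds was 2.02 ± 0.40 (adjusted p 1.61e-05). By the 25 °C libraries TT4 is lower in bent than in heart seeds (log2 fold change -2.86) and TT10 higher (2.19).

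Mucilage genes of the outer seed coat rose in part, with 10 of 21 (47.6%) higher and 2 (9.52%) lower at 27 °C. The shares over all genes tested were 12.6 and 11.5%. Leaving out replicate 1 at 23 °C gave 10 mucilage genes higher and 3 lower. Without replicate 3 at 23 °C, or replicate 2 or 3 at 27 °C, 1 was lower. GATL5 (AT1G02720), a glycosyltransferase of pectin, had 320.2, 313 and 344 normalised counts at 23 °C, 330.4, 325 and 310.3 at 25 °C and 2959, 3039 and 2542 at 27 °C (log2 fold change 3.13 ± 0.23, adjusted p 3.93e-38), a separation of about 8.73-fold with little spread in either group. MUM4 (AT1G53500), which makes rhamnose for the mucilage pectin, had 3089, 1828 and 4205 at 23 °C against 7965, 8964 and 7917 at 27 °C. MUM2 (AT5G63800), a galactosidase that trims it, had 900.2, 664 and 889 at 23 °C against 1732, 1767 and 1689 at 27 °C, and CESA5 (AT5G09870), which makes its cellulose, had 2313, 1935 and 2068 at 23 °C against 3171, 3112 and 3131 at 27 °C. ARA12 (AT5G67360), the subtilase SBT1.7 that permits mucilage release and the most abundant member, was lower with 34848, 29736 and 33794 at 23 °C against 22939, 23646 and 23324 at 27 °C (log2 fold change -0.49 ± 0.15). The interaction with stage was positive for 12 of the 21 mucilage genes and negative for 1, beside 8.79 and 5.88% over all genes tested. For MUM4 the effects were 1.45 (heart) and -1.02 (bent) and for MUM2 1.08 and -1.06, so both rose in heart and fell in bent seeds.

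Suberin, the waxy polyester of the inner seed coat, had 8 of 21 genes (38.1%) higher and 0 lower. The shares over all genes tested were 12.6 and 11.5%. Leaving out replicate 1 at 23 °C gave 11 suberin genes higher and 0 lower. The count was 4 when replicate 2 or replicate 3 at 23 °C was left out and 3 when replicate 2 at 27 °C was. MYB107 (AT3G02940), a transcription factor of suberin in the seed coat, had 18.3, 5.37 and 10.6 normalised counts at 23 °C and 84.3, 112 and 81.2 at 27 °C (log2 fold change 3.02 ± 0.39, adjusted p 1.08e-12). ASFT (AT5G41040), a feruloyl transferase of suberin, had 451, 260.5 and 249 at 23 °C against 772, 1019 and 776 at 27 °C, and its call was lost without replicate 2 at 27 °C (log2 fold change 1.27, adjusted p 0.0503). The transporter gene ABCG20 (AT3G53510) had 322, 21.5 and 20.4 at 23 °C against 311, 479 and 321 at 27 °C, where replicate 1 at 23 °C was as high as the 27 °C libraries. Its log2 fold change was 1.61 ± 0.64 (adjusted p 0.0478) with all libraries and 4.14 ± 0.39 without replicate 1, and leaving out any other heart library gave 1.11 to 1.72 without a call. By the interaction test with all libraries the effect was smaller in heart than in bent seeds for 15 of the 21 suberin genes. It was larger for 0. Over all genes tested the effect was smaller in heart seeds for 5.88% and larger for 8.79%. For MYB107 the effects were 3.02 and 2.66, and for ABCG20 1.61 and 4.30. Without replicate 1 at 23 °C the heart effect of ABCG20 was 4.14, near its bent effect. How many of the suberin stage differences depend on that replicate was not counted. Over all genes 3510 stage differences were called without it and 3147 with it.

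Cutin, the related polyester of the outer surface, moved down or not at all. Of 10 genes 3 (30%) were lower and 0 higher, beside 11.5 and 12.6% over all genes tested. The count of lower ones was 5 without replicate 1 at 23 °C. BDG1 (AT1G64670), which shapes the cuticle, had 853, 969.5 and 886 at 23 °C and 542, 406 and 588 at 27 °C (log2 fold change -0.82 ± 0.14), and the acyltransferase gene DCR (AT5G23940) had 4011, 5306 and 3799.6 at 23 °C against 2900.0, 2049 and 3037 at 27 °C. The interaction with stage was negative for 7 of 10 cutin genes, beside 5.88% over all genes tested.

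Several transporters that feed the embryo rose. Of 21 genes for sugar and amino acid supply 9 (42.9%) were higher and 3 (14.3%) lower. The shares over all genes tested were 12.6 and 11.5%. Leaving out replicate 1 at 23 °C gave 10 supply genes higher and 4 lower. SWEET15 (AT5G13170), which exports sucrose from the seed coat and endosperm, had 907, 443 and 769 normalised counts at 23 °C, 824, 470.5 and 782 at 25 °C and 5084, 6465 and 4916 at 27 °C (log2 fold change 2.96 ± 0.24, adjusted p 4.21e-33). Levels at 27 °C were above every library at 23 °C and 25 °C. The amino acid exporter gene UMAMIT28 (AT1G01070) had 31.1, 22.4 and 10.6 at 23 °C against 261, 300.2 and 213 at 27 °C. A second one, UMAMIT25 (AT1G09380), had 1579, 1317 and 1778 at 23 °C against 4558, 5360.5 and 4355 at 27 °C. Neither gene's groups overlapped. SWEET4 (AT3G28007), a hexose transporter, was lower (628, 672 and 559.6 at 23 °C against 269, 247 and 226 at 27 °C, log2 fold change -1.33 ± 0.15). SUS2 (AT5G49190), the sucrose synthase of filling seeds, had 624, 94.0 and 109 at 23 °C against 495, 624 and 481 at 27 °C, was not called with all libraries (adjusted p 0.14) and was higher without replicate 1 (log2 fold change 2.39 ± 0.26).

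Of 26 oil synthesis genes 5 (19.2%) were higher and 2 (7.69%) lower, beside 12.6 and 11.5% over all genes tested, with 7 and 2 without replicate 1 at 23 °C, and 3 higher without replicate 2 at 23 °C. AT5G16230, an acyl-carrier-protein desaturase gene, had 161, 33.1 and 157 at 23 °C and 486, 529.5 and 428 at 27 °C (log2 fold change 2.04 ± 0.35), and DGAT1 (AT2G19450), which makes triacylglycerol, had 822, 700.0 and 806 at 23 °C against 1039, 1210.3 and 1066 at 27 °C. FAE1 (AT4G34520), which elongates fatty acids for seed oil, had 167, 1.79 and 10.6 at 23 °C against 140.2, 175 and 132 at 27 °C. It was called without replicate 1 (log2 fold change 4.58 ± 0.45) and not in the fit with all libraries (1.32 ± 0.77, adjusted p 0.217). The interaction was positive for 15 of the 26 genes and negative for 0, beside 8.79 and 5.88% over all genes tested. WRI1, the activator of fatty acid synthesis, was not called (1895, 939.9 and 1692 at 23 °C against 1750.1, 2081 and 1771 at 27 °C).

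Several of the genes with the largest increases were nearly silent in heart seeds at 23 °C and abundant in bent seeds at 23 °C. RLP55 (AT5G45770), a receptor-like protein gene (chromosome 5, 18563333 to 18564921), had 0.915, 0 and 0 normalised counts at 23 °C, 0.849, 0 and 1.73 at 25 °C and 1620.0, 1467 and 1242 at 27 °C, at least 481-fold higher at 27 °C, taking 3 counts per library as the floor. Its mean was 7482 in bent seeds at 23 °C. AT5G05020, of the Ole e 1 allergen and extensin family, had 2.75, 0 and 0 at 23 °C and 806, 1046 and 851 at 27 °C (at least 300.4-fold), and 2431 in bent seeds at 23 °C. FLA5 (AT4G31370), a fasciclin-like arabinogalactan protein gene, had 6.40, 3.58 and 7.08 at 23 °C against 1326, 1352 and 1160.2 at 27 °C (log2 fold change 7.81 ± 0.42), with 4174 in bent seeds at 23 °C. At 25 °C FLA5 had 5.10, 3.56 and 9.53, as low as at 23 °C.

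Uncharacterized genes with neighbouring locus numbers on chromosome 1 belonged to the same set. AT1G62060 had 1503, 61.8 and 2080.0 at 23 °C and 27169, 28275 and 23976 at 27 °C, and its mean in bent seeds at 23 °C was 170822. AT1G62070 had 28.4, 0.895 and 7.08 at 23 °C against 5144, 4912 and 4431 at 27 °C, and AT1G62220 84.2, 0.895 and 0 at 23 °C against 1253, 1631 and 1228 at 27 °C. For AT1G62220 replicate 1 at 23 °C held nearly all control counts, and the log2 fold change was 5.60 with it and 11.59 without it. The value without it is a fitted one against control libraries under 3 counts and is no bound. Whether reads are shared among these genes was not tested. The other genes with large increases were GRP17 (AT5G07530), a glycine-rich protein gene, LCR62 (AT2G29045), a cysteine-rich peptide gene, NRT2.6 (AT3G45060), a nitrate transporter gene, and SAG12 (AT5G45890), a cysteine protease gene known from senescence. They changed by 6.24, 5.73, 5.63 and 4.12 on the log2 scale with all libraries and by 8.84, 7.66, 7.39 and 5.05 without replicate 1. Without replicate 1 the controls of GRP17, LCR62 and NRT2.6 were at or under 3 counts, so their values there are fitted ones and no bounds.

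**Figure D4:**
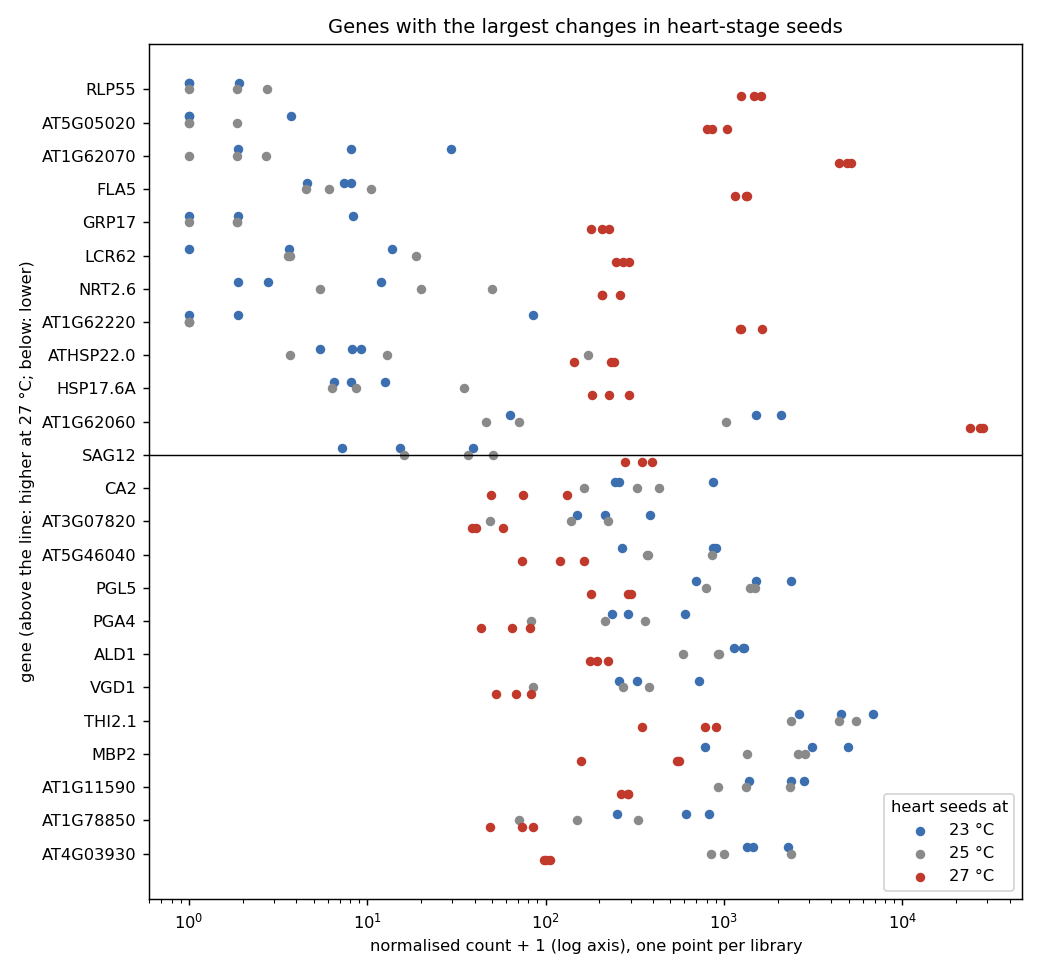
Normalised count plus 1 (log axis) in each heart library at 23 °C (blue), 25 °C (grey) and 27 °C (red) for the 12 genes with the largest increase (above the line) and the 12 with the largest decrease (below) among those called in both fits without overlap and with a mean of at least 100. RLP55 has at most 0.915 counts in a 23 °C library and at least 1242 at 27 °C. At 25 °C replicate 3 has 172 counts of ATHSP22.0, within the range at 27 °C, and 84.1 of VGD1, close to the 82.1 of the highest library at 27 °C.

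The most abundant genes that rose by at least 2-fold had a still higher mean in bent seeds at 23 °C, with 1 exception. AT5G38160, a lipid transfer protein gene, had 16039, 7400.3 and 14192 normalised counts at 23 °C and 32368, 38208 and 29812 at 27 °C, and its mean was 127519 in bent seeds at 23 °C. The germin-like genes GER2 (AT5G39190) and AT5G39160 lie close together and share sequence. GER2 had 4913, 4617 and 4936 at 23 °C against 18271, 19039.9 and 16315 at 27 °C, and AT5G39160 3756, 2970.1 and 4048 at 23 °C against 15418, 17734 and 14593 at 27 °C. LCR69 (AT2G02100), RGP4 (AT5G50750) and AT4G12290, a copper amine oxidase gene, changed by 1.08, 1.04 and 1.11 on the log2 scale, and ATPMEPCRD (AT2G43050), of the pectin methylesterase family, by 2.46 (1839, 475 and 6051 at 23 °C against 13196, 19038 and 13764 at 27 °C). The exception was TGG1 (AT5G26000), the myrosinase that splits glucosinolates, which had 4585, 10200.3 and 6352 at 23 °C and 17217, 15202 and 13562 at 27 °C in heart seeds and a mean of 3398 in bent seeds at 23 °C.

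The most abundant genes that fell by at least 2-fold had lower levels in bent seeds at 23 °C in every case. GILT (AT4G12960), a thiol reductase gene (chromosome 4, 7583239 to 7584759), had 256519, 283212 and 265093 normalised counts at 23 °C, 224381, 271038 and 207293 at 25 °C and 98470.1, 78170.2 and 96094 at 27 °C, and 16004 on average in bent seeds at 23 °C. The neighbouring and related gene AT4G12870 had 52704, 40364 and 32418 at 23 °C against 10803, 9123 and 9812 at 27 °C (log2 fold change -2.08 ± 0.23). DELTA-VPE (AT3G20210), the protease that acts in the death of inner seed coat layers, had 91677, 108922 and 98438 at 23 °C against 48585, 40522 and 44879.6 at 27 °C, with a log2 fold change of -1.16 ± 0.21 (adjusted p 1.68e-06). LTP6 (AT3G08770), a lipid transfer protein gene, had 60496, 109799 and 88561 at 23 °C against 40586, 29673 and 38159 at 27 °C. AT1G56100, AT4G15750 and AT5G49180, of the superfamily of pectin methylesterases and their inhibitors, changed by -1.33, -1.73 and -1.28 on the log2 scale, and the carboxypeptidase gene scpl20 (AT4G12910) by -1.66.

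The genes with the largest decreases included MBP2 (AT1G52030), a myrosinase-binding protein gene with 781, 4955 and 3103 normalised counts at 23 °C and 548, 157 and 555 at 27 °C (log2 fold change -2.81 ± 0.56). THI2.1 (AT1G72260), an antimicrobial thionin, had 2647, 6886 and 4561 at 23 °C against 901, 348 and 782 at 27 °C. ALD1 (AT2G13810), which makes a precursor of the defence signal pipecolic acid, had 1299, 1135 and 1271 at 23 °C against 223, 194 and 178 at 27 °C. These 3 were lower in all 27 °C libraries than in any at 23 °C. AT4G03930 and AT1G11590, of the same pectin methylesterase superfamily, fell too. AT4G03930 had 1345, 2284 and 1459 at 23 °C against 99.0, 97.3 and 105 at 27 °C (log2 fold change -4.08 ± 0.38), and AT1G11590 1376, 2813 and 2378 at 23 °C against 288, 263 and 291 at 27 °C. The lectin gene AT1G78850, PGL5 (AT5G24420), of the pentose phosphate pathway, and the transporter gene AT5G46040 changed by -3.04, -2.57 and -2.51 on the log2 scale. CA2 (AT5G14740), a carbonic anhydrase gene, changed by -2.43 ± 0.59, and its call was lost without replicate 2 at 23 °C (-1.57, adjusted p 0.0557).

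The remaining genes of the largest decreases, VGD1, PGA4 and AT3G07820, are pollen genes, and pollen markers as a list were lower. Of 21 tested 17 (81%) were lower and 1 (4.76%) higher, beside 11.5 and 12.6% over all genes tested. The median log2 fold change of the list was -2.59, and 18 were lower and 1 higher without replicate 1 at 23 °C. VGD1 (AT2G47040), a pectin methylesterase of growing pollen tubes, had 327, 259 and 722 normalised counts at 23 °C, 378, 269.5 and 84.1 at 25 °C and 66.9, 51.6 and 82.1 at 27 °C (log2 fold change -2.70 ± 0.69, adjusted p 0.000927). PGA4 (AT1G02790), a polygalacturonase, had 288, 234 and 607 at 23 °C against 64.1, 42.3 and 81.2 at 27 °C, AGP11 (AT3G01700), an arabinogalactan protein of pollen, 57.6, 47.4 and 122 at 23 °C against 8.25, 12.7 and 11.7 at 27 °C, and ANX2 (AT5G28680), a receptor kinase of the pollen tube tip, 16.5, 13.4 and 46.9 at 23 °C against 1.83, 2.54 and 0.838 at 27 °C. In each of these replicate 3 at 23 °C was the highest library. The list took 0.0144 to 0.0288% of counts at 23 °C, 0.00928 to 0.0192% at 25 °C and 0.00873 to 0.00934% at 27 °C. The part of pollen or pollen tubes carried with the seeds was not tested. The exception was MYB101 (AT2G32460), a transcription factor gene of pollen tubes, which was higher (189, 86.8 and 166 at 23 °C against 272, 326 and 293 at 27 °C). Markers of the fruit wall took 0.0146 to 0.0160% at 23 °C and 0.0147 to 0.0156% at 27 °C. Of 6 tested 1 (16.7%) was higher and 1 (16.7%) lower, near the 12.6 and 11.5% over all genes tested. The count of lower ones was 2 without replicate 2 at 23 °C and 0 without any other 1 of the libraries.

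Histone genes were lower in part. Of 43 tested, a list taken by annotation that also holds the histone-fold factor LEC1, 18 (41.9%) were lower and 0 higher. The shares over all genes tested were 11.5 and 12.6%. The list had a median log2 fold change of -0.33, and 15 members were lower without replicate 1 at 23 °C. Leaving out any other of the 6 libraries gave 7 to 9, fitting the heart libraries alone gave 28, and scaling to library totals 12. The histone H4 gene HIS4 (AT2G28740) had 1217, 1508 and 1359 normalised counts at 23 °C and 918, 956 and 849 at 27 °C (log2 fold change -0.58 ± 0.12, adjusted p 1.91e-05), with no overlap. Many histone genes share coding sequence, so their sum is the surer value: it was 60848 to 65024 at 23 °C, 60296 to 63116 at 25 °C and 49690.0 to 50703 at 27 °C. Of 33 cell division genes 1 (3.03%) was higher and 2 (6.06%) were lower, both below the shares over all genes tested. The counts were 4 and 2 without replicate 1 at 23 °C, and 2 and 6 with the 6 heart libraries alone. KNOLLE, of the division plane, ranged over 4370.2, 1764 and 2761 within 23 °C and 2999.9, 3258 and 2722 at 27 °C, so that its controls spread more widely than the 27 °C libraries. Leaving out any one library other than replicate 1 at 23 °C gave 0 or 1 cell division genes higher and 0 lower, and scaling to library totals 0 lower.

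Ribosomal protein genes had small changes. Of 316 tested 7 (2.22%) were higher and 8 (2.53%) lower, both below the shares over all genes, with a median log2 fold change of -0.12. Without replicate 2 at 23 °C, or replicate 2 or 3 at 27 °C, 3 or 4 were higher, and without these or replicate 3 at 23 °C 4 or 5 were lower. With the 6 heart libraries alone 86 were lower, beside 2472 among all genes. In that fit the share of lower ribosomal protein genes was thus above that over all genes. Under scaling to library totals 3 were lower. The summed level was 726597 to 740113 normalised counts at 23 °C and 654502 to 669789 at 27 °C, which do not overlap.

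Photosynthesis genes of the green embryo and seed coat were lower in part. Of 25 light harvesting and Rubisco genes 7 were lower and 0 higher, and 4 without replicate 1 at 23 °C, 3 without replicate 2 at 23 °C or replicate 2 at 27 °C, 3 with the edgeR test and 12 with the heart libraries alone. LHCB4.2 (AT3G08940), an antenna protein of photosystem II, had 4087, 4624 and 3506 normalised counts at 23 °C and 2688, 1987 and 2162 at 27 °C (log2 fold change -0.84 ± 0.16). RBCS1A, the main small subunit of Rubisco, was not called, with 29245, 36951 and 30334 at 23 °C against 28755, 26078 and 28966 at 27 °C. In bent seeds LHCB4.2 changed by -1.20 and RBCS1A by -0.83. Of the 25 genes 9 had a positive difference between the stages, that is, a smaller fall in heart seeds, and 0 a negative one. The shares over all genes tested were 8.79 and 5.88%.

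Among 30 genes of DNA methylation and demethylation, 3 (10%) were higher and 8 (26.7%) lower in both fits. The shares over all genes tested were 12.6 and 11.5% with all libraries. Of this list 5 were lower without replicate 3 at 23 °C and 2 under scaling to library totals. ROS1 (AT2G36490), a demethylase, had 1973, 2080.4 and 1931 normalised counts at 23 °C and 1320.4, 1257 and 1657 at 27 °C (log2 fold change -0.50 ± 0.14, adjusted p 0.0025), with a lower level in each 27 °C library than in any at 23 °C. CLSY1 (AT3G42670), a remodeller of RNA-directed methylation, was higher, with 679.7, 355 and 527 at 23 °C against 781, 819 and 762 at 27 °C (log2 fold change 0.60 ± 0.16). CMT3 (AT1G69770), a methyltransferase that maintains methylation outside CG sites, had 1484, 1448 and 1717 at 23 °C against 1658, 1826 and 1898 at 27 °C and was not called (log2 fold change 0.21 ± 0.16, adjusted p 0.363).

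Regulators of the endosperm and embryo changed singly. Of 27 endosperm and imprinted genes 3 (11.1%) were higher and 3 (11.1%) lower, beside 12.6 and 11.5% over all genes tested. Without replicate 1 at 23 °C 3 were higher and 4 lower, and without replicate 2 at 27 °C 1 was higher. FIS2 (AT2G35670), a polycomb gene of the endosperm, had 244, 288 and 314 normalised counts at 23 °C and 98.0, 49.9 and 81.2 at 27 °C (log2 fold change -1.89 ± 0.36, adjusted p 5.17e-06). ICE1 (AT3G26744), needed for breakdown of the endosperm, was higher with 4452, 3109.8 and 4099 at 23 °C against 5424, 5869.6 and 5273 at 27 °C. Of 20 embryo patterning genes 1 (5%) was higher and 6 (30%) lower, and 1 and 3 without replicate 1 or under scaling to library totals. ATML1 (AT4G21750), the homeodomain factor of the epidermis, had 4009, 4006 and 4497 at 23 °C against 2711, 2744 and 2973 at 27 °C (log2 fold change -0.57 ± 0.09), and CUC1 (AT3G15170), of the cotyledon boundary, was the higher one with 83.2, 58.2 and 62.0 at 23 °C against 107, 138 and 118 at 27 °C.

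Clock genes that passed the test were all higher. Of 17 clock genes 6 (35.3%) were higher and 0 lower, beside 12.6 and 11.5% over all genes tested. The counts were 7 and 0 without replicate 1 at 23 °C. The morning gene CCA1 (AT2G46830) had 271, 314 and 235 at 23 °C against 461, 406 and 472 at 27 °C normalised counts. The morning gene LHY (AT1G01060) had 135, 286 and 187 at 23 °C against 335, 361 and 345 at 27 °C. The evening gene ELF4 (AT2G40080) had 290.0, 249 and 249.7 at 23 °C against 434, 518 and 443 at 27 °C, so genes of both phases rose. The hour of sampling is not given in the labels used here. Of 22 light and temperature sensing genes 2 (9.09%) were higher and 3 (13.6%) lower, beside 12.6 and 11.5% over all genes tested. The counts were 4 and 5 without replicate 1, and 1 was higher without replicate 2 or 3 at 23 °C or replicate 2 at 27 °C. Under scaling to library totals 4 were higher and 1 lower. PIF4 (AT2G43010), which drives growth in warmth, was lower (234, 215 and 158 at 23 °C against 87.0, 80.3 and 80.4 at 27 °C, log2 fold change -1.29 ± 0.25). FLC (AT5G10140), the repressor of flowering that is set anew in the embryo, was higher (33.9, 12.5 and 19.5 at 23 °C against 105, 119 and 99.7 at 27 °C, log2 fold change 2.30 ± 0.24, adjusted p 9.53e-19). FT (AT1G65480), the flowering signal, had 12389, 8923 and 6917 at 23 °C against 13423, 13132 and 13692 at 27 °C. It was not called in the fit with all libraries (adjusted p 0.0554) and was higher when replicate 1 at 23 °C was left out (log2 fold change 0.76 ± 0.21, adjusted p 0.00255) and also with that replicate kept when the 6 libraries were fitted alone (0.52, adjusted p 0.0302). Of 4 galactinol and raffinose genes 1 (25%) was higher and 1 (25%) lower, beside 12.6 and 11.5% over all genes tested. The count of lower ones was 0 without replicate 2 or 3 at 23 °C or replicate 2 at 27 °C.

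Beyond FT, the most abundant genes that were not called with all libraries and were called without replicate 1 at 23 °C are given next. Some of them also passed the test with that replicate kept, under another scaling or with the heart libraries alone (GSR2, AT2G25450, AT5G20700, RHM1 and CCL). The higher ones were MS2 (AT3G03780), GSR2 (AT1G66200), AT2G25450, AT5G20700 and 4CL1 (AT1G51680), with log2 fold changes of 0.57, 0.40, 0.72, 0.36 and 0.75 without the replicate and adjusted p-values of 0.277, 0.127, 0.17, 0.0743 and 0.388 with it. The lower ones were RHM1 (AT1G78570), UGE1 (AT1G12780), MTHFR1 (AT3G59970), AT5G09370, CCL (AT3G26740) and CA1 (AT3G01500), with log2 fold changes of -0.33 to -1.45 without the replicate. They include enzymes of methionine and folate metabolism (MS2, MTHFR1), of glutamine synthesis (GSR2), of phenylpropanoids (4CL1) and of nucleotide sugars (RHM1, UGE1).

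The calls at 27 °C were then set against development at 25 °C, taken from the change between heart and bent seeds at 25 °C, libraries that are in neither group of the comparison. Of 5787 genes (27.0% of those tested) that were higher in bent than in heart seeds, 25.5% were higher and 6.12% lower in heart seeds at 27 °C, with a median log2 fold change of 0.09. Of 6595 genes (30.8%) lower in bent seeds, 5.41% were higher and 20.2% lower, with a median of -0.12. Of the 9063 other genes 9.5% were higher and 8.58% lower. With replicate 1 of the control left out the shares were 28.6 and 4.82% in the first class and 5.25 and 21.7% in the second. Among the 2106 genes at least 2-fold higher in bent seeds, 39.6% were higher in heart seeds at 27 °C and 4.89% lower. The part that a later age of the embryos in the 27 °C seeds has in these calls was not tested, and stage labels alone cannot tell it apart from temperature.

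**Figure D5:**
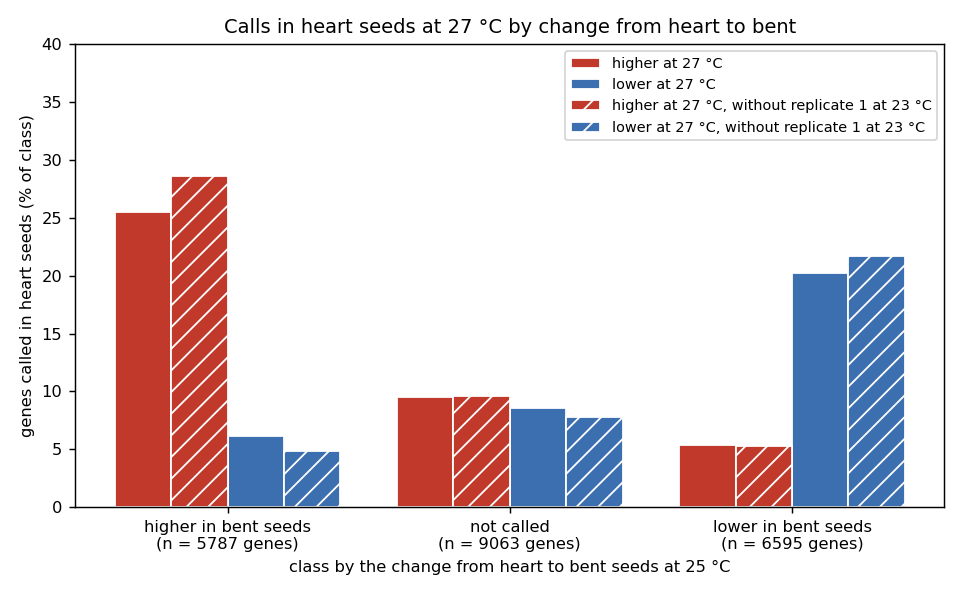
Share of genes (y axis, % of class) called higher (red) or lower (blue) in heart seeds at 27 °C against 23 °C, for genes sorted by their change from heart to bent seeds at 25 °C, with all libraries (plain bars) and without replicate 1 at 23 °C (hatched bars). Among genes higher in bent seeds 25.5% were higher and 6.12% lower at 27 °C, and among genes lower in bent seeds 5.41% were higher and 20.2% lower.

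Finally the 27 °C effect was compared between stages. It differed between heart and bent seeds for 3147 genes (14.7%) and between heart and mature seeds for 3201 (14.9%). In bent seeds 3412 genes (15.9%) were higher and 4511 (21.0%) lower, and 1208 genes were higher and 1205 lower at both stages. Genes called in opposite directions at the 2 stages, with a called difference and a mean of at least 100, numbered 296, of which 200 were higher in heart seeds and lower in bent seeds and 96 the reverse. After RLP55 and FLA5, the largest such differences were those of AT1G09550, a pectin acetylesterase gene, AT5G15180, a peroxidase gene, and AT3G52550, an OFP15-like gene. AT1G09550 had 135, 77.0 and 238 normalised counts at 23 °C and 1613, 1783 and 1550.5 at 27 °C in heart seeds and means of 5168 and 2111 in bent seeds. AT5G15180 had 144, 26.9 and 361 at 23 °C against 1365, 1741 and 1297 at 27 °C in heart seeds and 5473 and 2043 in bent seeds. AT3G52550 had 77.8, 29.5 and 68.2 at 23 °C against 475, 564 and 488 at 27 °C in heart seeds and 1671 and 681 in bent seeds. For all 3 the heart level at 27 °C stayed below the bent level at 23 °C.

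In the reverse direction stood BGLU18 (AT1G52400), a glucosidase that releases abscisic acid from its stored form, with 642, 3435 and 1949.8 normalised counts at 23 °C and 519.5, 206 and 530.2 at 27 °C in heart seeds and means of 14.2 and 32.4 in bent seeds. MYB60 (AT1G08810), a transcription factor gene known from guard cells, had 659.6, 706 and 921 at 23 °C against 388, 426 and 419.7 at 27 °C in heart seeds and 174 and 1249 in bent seeds. The extensin-like gene AT3G49270 had 2531, 8084 and 6035 at 23 °C against 1997, 1135 and 2061 at 27 °C, and AT5G38865 243, 271 and 246 at 23 °C against 83.4, 33.8 and 66.2 at 27 °C. The deaminase gene AT4G29570 had 423, 375 and 359 at 23 °C against 202, 246 and 184 at 27 °C in heart seeds, where its call (log2 fold change -0.87, adjusted p 0.0388) was lost without replicate 1, 2 or 3 at 23 °C (adjusted p 0.11, 0.0911 and 0.0743) or with replicate 1 or 3 at 27 °C left out (0.106 and 0.141). All 5 of these genes had a lower mean in bent than in heart seeds at 23 °C.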

How the data were processed

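Total RNA of whole seeds was sequenced, and the authors deposited estimated counts (expected counts) per transcript, made with Salmon per the labels; the strand setting is not given in the sources used here. The deposited table held 48268 transcripts in 27 libraries. Values were summed over the transcripts of each of 27587 loci and the sums rounded. Salmon divides reads between similar transcripts, so counts of near-identical genes are uncertain. Total counts of the 6 heart libraries were 17227596 to 18767712. The 21445 genes that reached 10 counts in 3 or more libraries were tested. DESeq2 1.42.0 in R 4.3.3 fitted all 27 libraries in 9 groups, with Wald tests, Benjamini-Hochberg adjustment and a threshold of 0.05. Differences between stages were interaction contrasts. Alternatives were edgeR 4.0.16 (quasi-likelihood), TMM or total scaling, no filter, heart libraries only, a replicate block, a threshold of 0.01 and each library left out. Repeats of some of these without replicate 1 at 23 °C were chosen after seeing the data. The fits were tested on simulated data. The main fit did not pair samples by replicate number, and whether the numbers pair them could not be told. Motifs were searched in 250 bases before each RefSeq gene start.

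The members and gene lists were chosen with earlier results of these data known. Named genes were those with the 12 largest changes per direction among genes called in both fits without overlap and with a mean of at least 100, the 10 most abundant per direction that changed at least 2-fold, the 6 most abundant per direction called without replicate 1 at 23 °C but not with all libraries, the 5 per direction with the largest stage difference and opposite calls, and any member of a list. A fold given as at least a value was computed against a floor of 3 counts, where every library of a group had 3 counts or fewer. Fitted log2 fold changes have no such floor.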

Additional observations from a re-analysis of the deposited data

Results flagged for a closer look

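The effect of 27 °C differed between stages by the interaction test for 3147 genes (heart against bent seeds) and for 3201 genes (heart against mature seeds). Among genes called in opposite directions at the heart and bent stages, the effect in heart seeds minus that in bent seeds was 12.99 for RLP55, 8.84 for FLA5, 4.75 for AT1G09550, 4.47 for AT5G15180 and 4.42 for AT3G52550 on the log2 scale. The value for RLP55 is a fitted one against control libraries at or under the floor and is no bound. In the other direction the difference was -3.87 for AT5G38865, -3.73 for MYB60, -3.68 for AT4G29570, -3.48 for AT3G49270 and -3.44 for BGLU18.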

How the results depend on the processing

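With all libraries, leaving out 1 library at a time gave 1922 to 2873 genes higher and 1627 to 2413 lower, where the lowest count of lower genes came without replicate 2 at 27 °C. Scaling to library totals gave 1346 lower genes and an adjusted p under 0.01 gave 1599, or 1545 without replicate 1 at 23 °C. The stage difference was called for 2291 to 3957 genes (bent) and 2413 to 3475 (mature) with 1 library left out, and for 1827 and 1910 at an adjusted p under 0.01. Of genes higher in bent seeds at 25 °C, 39.6% were higher at 27 °C when classes required a 2-fold change, and 28.6% higher and 4.82% lower without replicate 1 at 23 °C. For genes lower in bent seeds the latter shares were 5.25 and 21.7%, and for the others 9.6 and 7.78%. Leaving out replicate 1 at 23 °C turned the direction of 6 named genes, to log2 fold changes of 3.80 (OLEO1), 4.41 (CLO1), 2.61 (CRU2), 2.31 (SESA4), 2.91 (CRU3) and 4.44 (CRA1). With 1 library left out these ranged from -1 to 3.80, -1.32 to 4.41, -3.12 to 2.61, -3.32 to 2.31, -2.77 to 2.91 and -1.18 to 4.44.

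Deviations of libraries with the same replicate number correlated at -0.17, -0.42 and 0.06, and 1 of 3 matched best with its own number. With so few libraries this check cannot show whether the numbers pair the samples. The main fit did not pair them. With a replicate block 2401 genes were higher and 1962 lower, CRU2 changed by 0.90 (adjusted p 0.5601) and SESA4 by 0.82 (adjusted p 0.5756). Without replicate 1 at 23 °C the block gave 2180 and 1649, and edgeR 2775 and 2391. The cause of these shifts was not tested.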
